A study of Mus musculus with 8 samples.

Results

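The enzymes described here carry fructose into metabolism and turn its carbon, or that of pyruvate, into glucose. They are Khk, Tkfc, Glyctk and Sord on the fructose side and Fbp1, Fbp2, G6pc, Pck1 and Pck2 on the glucose side. They were chosen by name, as probe sets whose platform symbol is one of these 9, and 8 of the 9 were measured, of 19505 genes with a symbol and 22206 probe sets in all. Each of the 8 had 1 probe set. No probe set carried the symbol Sord, the enzyme that oxidizes sorbitol to fructose, so Sord is not analysed here.

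About 4 cm of ileum was taken from each mouse, and 250 ng of its total RNA went onto 1 Affymetrix array. The voglibose group was 4 male KKAy mice given voglibose at 1 mg/kg once a day by gavage for 8 weeks. The water group was 4 male KKAy mice given water by gavage over the same 8 weeks, in a volume of 0.05 ml per 10 g. All 8 mice carried the KKAy background, in which the yellow agouti allele causes obesity and diabetes, and all had eaten a diet with 45% of its energy as fat for 4 weeks before treatment. The labels give an age of 14 weeks for both groups, and no lean or chow-fed mice were analysed here. Voglibose blocks alpha-glucosidases at the brush border, so that sucrose and starch are split more slowly and more of them travel down the gut. Whether transcripts of these enzymes differ in the ileum after treatment is the question the comparison addresses.

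In enterocytes, fructose enters through the carrier Slc2a5, is phosphorylated by ketohexokinase (Khk) and is then split, and triokinase (Tkfc) phosphorylates the glyceraldehyde that results. Gluconeogenesis runs from oxaloacetate through the phosphoenolpyruvate carboxykinases (Pck1 in the cytosol, Pck2 in mitochondria), the fructose bisphosphatases (Fbp1, Fbp2) and glucose-6-phosphatase (G6pc), which releases free glucose. The small intestine is, with liver and kidney, a tissue known to express both sets of enzymes.

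Values are log2 signals as deposited, in which a step of 1 is a doubling of signal on the array. Array medians lay between 5.89 and 5.94, lower quartiles between 4.05 and 4.18 and upper quartiles between 9.04 and 9.22, and any pair of arrays correlated at 0.982 to 0.994. The signal of a probe set also depends on its sequence, so levels are compared between mice and not between genes. Enterocyte markers were bright, with Anpep at 18.23 to 18.82 and Vil1 at 15.30 to 15.82. The mean of 10 enterocyte markers was 17.22 to 17.41 in voglibose mice and 17.25 to 17.33 in water mice. Some mice stood apart in other transcripts. In voglibose mouse 2, all 9 measured pancreatic acinar markers lay above the array median, with Amy2a5 at 14.09 against 4.41 to 5.32 in the other 7 mice. The mean of 10 distal ileum markers was highest in water mouse 2, at 14.87, and lowest in voglibose mouse 2, at 10.78, so results that rest on these mice are given with and without them. In whole tissue, fewer cells of a type and less RNA per cell cannot be told apart.

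Of the 8 enzymes, Fbp1 and Tkfc had higher signal in voglibose mice at an unadjusted p under 0.05, 2.08-fold and 1.56-fold, and neither passed after adjustment over all probe sets. Khk, Glyctk, Fbp2 and Pck1 were also higher on average, and G6pc and Pck2 lower. With limma, 0 of the 8 had an adjusted p under 0.05, as did 0% of all probe sets, and the same fit without moderation of the variance also called 0 of 8. At an unadjusted p under 0.05, 2 of the 8 were higher in voglibose mice, where 3.08% of all probe sets were, and 0 were lower, where 4.44% of all probe sets were. Adding the fold of 1.2 from the submitters' design text left the same 2, against 7.52% of all probe sets in either direction. The median difference over the 8 enzymes was 0.34, beside -0.005 over all probe sets, of which 49.1% were higher in voglibose mice. With 8 arrays the precision is limited. The limma p-values set each difference of means against the spread between these mice, moderated over all probe sets. The median SE of a difference was 0.18.

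**Figure D1:**
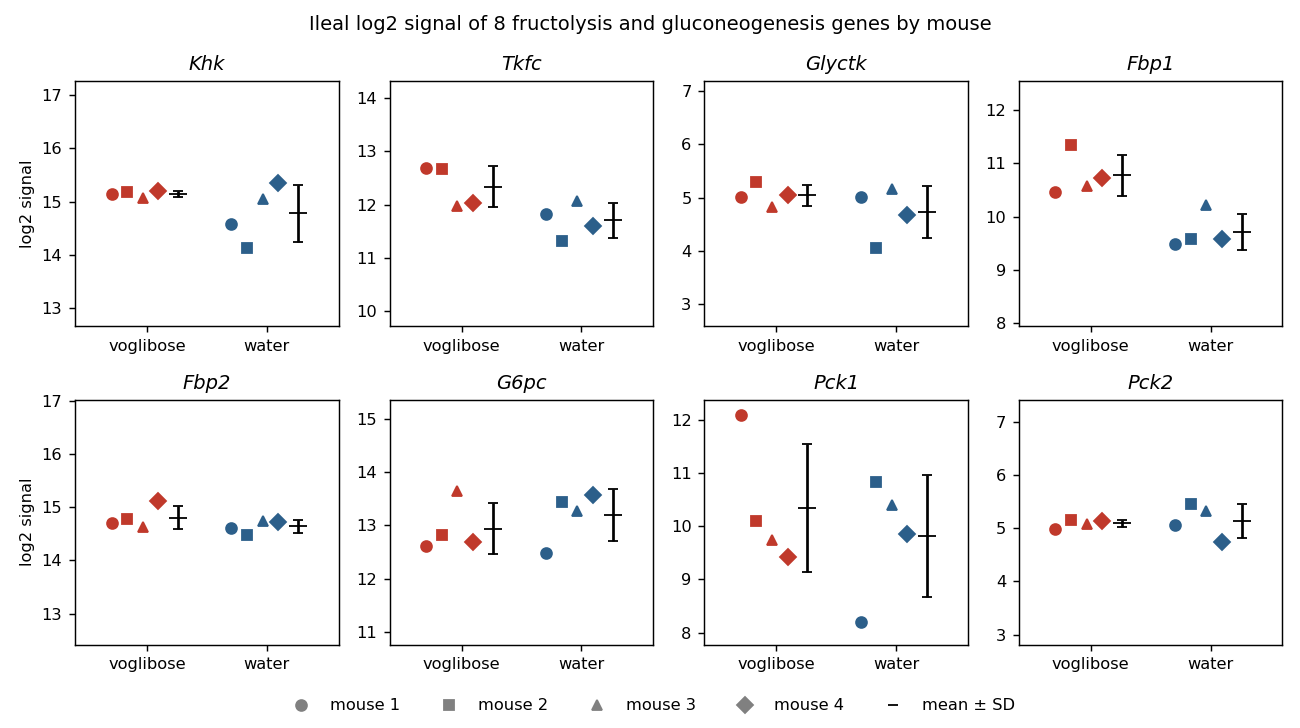
Log2 signal of each of the 8 enzymes in each mouse, with voglibose mice (red) left of water mice (blue) in each panel, shape for the mouse number and a bar for the mean ± SD of each group of 4. The 4 voglibose points of Fbp1, at 10.47 to 11.34, all lie above the 4 water points, at 9.48 to 10.22, and the groups overlap for the other 7 genes.

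Khk, which makes fructose 1-phosphate, gave 15.14, 15.18, 15.07 and 15.21 in voglibose mice and 14.58, 14.14, 15.06 and 15.35 in water mice. The voglibose mice lay close together, and the water mice spread more widely. Water mice 1, 2 and 3 lay below every voglibose mouse, with water mouse 2 lowest, and water mouse 4 was highest of all 8. The difference was 0.37 ± 0.23 (SE; 95% interval -0.14 to 0.88; limma adjusted p = 0.749, exact permutation p = 0.314). Leaving out water mouse 2 gave 0.15 (limma unadjusted p = 0.438). Leaving out water mouse 4 gave 0.56 (limma unadjusted p = 0.0223, adjusted p = 0.773), so its size rests on these mice. The plot of signals by mouse shows this difference in spread, with SDs of 0.06 in voglibose mice and 0.53 in water mice (n = 4 each).

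The promoter of Khk is shown because 2 of the motifs searched lie close together in it. It is chr5:30921309-30921608 on the plus strand of GRCm38.p6, from 250 bases before the transcript start to 50 after it, from RefSeq. Capitals mark an E-box (CACGTG), which begins at position -71 from the transcript start, and an HNF1 motif (GTTAAT), which begins at -60.
Khk: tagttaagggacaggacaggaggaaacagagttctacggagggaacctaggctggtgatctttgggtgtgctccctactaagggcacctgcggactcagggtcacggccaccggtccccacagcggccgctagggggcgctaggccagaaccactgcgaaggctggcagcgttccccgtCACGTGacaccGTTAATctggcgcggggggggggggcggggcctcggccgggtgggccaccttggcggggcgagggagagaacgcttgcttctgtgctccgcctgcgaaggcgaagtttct

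Tkfc, the triokinase that phosphorylates glyceraldehyde, gave 12.69, 12.66, 11.97 and 12.03 in voglibose mice and 11.83, 11.31, 12.06 and 11.60 in water mice. Voglibose mice 1 and 2 lay above every water mouse, and voglibose mice 3 and 4 overlapped the water range. The difference was 0.64 ± 0.22 (SE; 95% interval 0.15 to 1.12; limma adjusted p = 0.652), or 1.56-fold. An exact 2-sided permutation test of the means gave p = 0.0857. Leaving out 1 mouse at a time gave 0.51 to 0.76. Without voglibose mouse 2 and water mouse 2 it was 0.40, and without water mouse 4 as well it was 0.29, both with an unadjusted p above 0.05. These omissions were chosen after the data were seen. Water mice 2 and 4 had the lowest Tkfc and voglibose mouse 2 the second highest, so leaving them out was bound to lower the difference. Fewer mice also raise the p. The other 17 of 19 refits had an unadjusted p under 0.05, and limma adjusted p over all 19 was 0.515 to 0.994.

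Glyctk, glycerate kinase, handles a side route of glyceraldehyde carbon and was dim, below the median of every array. It gave 5.02, 5.30, 4.82 and 5.04 in voglibose mice and 5.02, 4.06, 5.17 and 4.68 in water mice. Water mouse 2 stood lowest and the groups overlapped. The difference was 0.31 ± 0.23 (SE; 95% interval -0.19 to 0.82; limma adjusted p = 0.791, exact permutation p = 0.314), and without water mouse 2 it was 0.09.

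Water mouse 2 was lowest of the 8 mice for each of the fructose-side enzymes measured, Khk, Tkfc and Glyctk. The carrier Slc2a5 was also lowest there, at 12.78 in that mouse against 13.86 to 15.45 in the other 7. Slc2a5 itself gave 15.06, 15.45, 13.86 and 14.79 in voglibose mice and 14.11, 12.78, 13.93 and 14.01 in water mice. Voglibose mice 1, 2 and 4 lay above every water mouse, and voglibose mouse 3 fell within the water range. Its difference was 1.08 ± 0.36 (SE; limma adjusted p = 0.652), and 0.55 without voglibose mouse 2 and water mouse 2. Across the 8 mice, the deviations of Tkfc from its group means correlated with those of Slc2a5 at 0.80 and of Glyctk at 0.77, as a description. With Khk the correlation was 0.35, and with the glucose-side enzymes it ran from -0.52 for G6pc to 0.48 for Fbp1. Points from 1 array share its hybridization and the piece of ileum it came from.

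Fbp1, fructose-1,6-bisphosphatase of liver, kidney and gut, gave 10.47, 11.34, 10.57 and 10.73 in voglibose mice and 9.48, 9.59, 10.22 and 9.58 in water mice. Its probe set was assigned by gene identifier, and whether it detects Fbp1 rather than Fbp2 was not checked against probe sequences. The lowest voglibose mouse lay above the highest water mouse, so the groups did not overlap, as for 4.35% of all probe sets. Fbp1 was the 1 enzyme of the 8 with such a separation. Means were 10.78 ± 0.39 in voglibose mice and 9.72 ± 0.34 in water mice (SD, n = 4 each), a difference of 1.06 ± 0.23 (SE; 95% interval 0.57 to 1.55; limma adjusted p = 0.652). An exact 2-sided permutation test gave p = 0.0286, the smallest that 70 arrangements allow. Among all 22206 probe sets, Fbp1 ranked 9th by p and 21st by the size of a higher mean in voglibose mice.

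Voglibose mouse 2, which carried the pancreatic transcripts, had the highest Fbp1. Without it the difference was 0.87, and without water mouse 3, the highest water mouse, it was 1.23. Without voglibose mouse 2 and water mouse 2 the difference was 0.83. The difference had an unadjusted limma p under 0.05 in 19 of 19 refits, with adjusted p between 0.469 and 0.994. With voglibose mouse 1, 2, 3 or 4 left out, the exact permutation p of Fbp1 was no longer under 0.05, though its groups still did not overlap.

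Fbp2, the isoform known from muscle, gave 14.71, 14.77, 14.63 and 15.11 in voglibose mice and 14.61, 14.47, 14.75 and 14.73 in water mice. The groups overlapped, with voglibose mouse 4 the highest and water mouse 2 the lowest. The difference was 0.17 ± 0.15 (SE; 95% interval -0.17 to 0.50; limma adjusted p = 0.832, exact permutation p = 0.286), and without voglibose mouse 4 it was 0.063. Of 10 skeletal muscle markers, 2 to 3 lay above the array median, among them Ckm at 6.91 to 7.94, and Myh4 was 2.88 to 3.31. Their mean was 4.53 to 4.71 in voglibose mice and 4.48 to 4.68 in water mice. The mean of 10 smooth muscle markers was 10.61 to 11.58 in voglibose mice and 9.58 to 12.27 in water mice, and the part of muscle in the Fbp2 signal was not tested. RefSeq lists crossed synonyms for Fbp1 and Fbp2. Each was matched by the gene identifier of the platform annotation, and which of the genes each probe set detects was not checked against probe sequences.

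Fbp1 and Fbp2 are neighbours on chromosome 13, with 0 RefSeq genes between them, so their promoters are shown together. The difference of Fbp1 exceeded that of Fbp2 by 0.90 log2 units within the arrays (exact 2-sided permutation p = 0.0286, the smallest possible, unadjusted). This pair was chosen after its values were seen. Fbp1 is chr13:62888233-62888532 and Fbp2 chr13:62858351-62858650, both on the minus strand of GRCm38.p6 and 300 bases long, with 50 bases after the start. Capitals mark an E-box in Fbp2, which begins at position -42 from the start, and Fbp1 held none of the motifs searched.
Fbp1: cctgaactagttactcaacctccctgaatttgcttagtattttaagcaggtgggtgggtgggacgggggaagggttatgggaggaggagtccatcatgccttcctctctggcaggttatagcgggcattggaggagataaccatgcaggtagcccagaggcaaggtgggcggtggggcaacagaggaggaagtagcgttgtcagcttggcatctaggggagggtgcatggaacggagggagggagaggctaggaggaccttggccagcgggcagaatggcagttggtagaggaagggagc
Fbp2: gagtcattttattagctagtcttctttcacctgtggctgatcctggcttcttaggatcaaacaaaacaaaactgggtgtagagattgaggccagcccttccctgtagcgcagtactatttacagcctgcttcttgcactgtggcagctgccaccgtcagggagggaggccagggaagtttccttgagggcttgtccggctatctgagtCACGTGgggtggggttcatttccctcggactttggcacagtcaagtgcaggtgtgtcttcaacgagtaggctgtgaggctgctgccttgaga

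G6pc, the catalytic subunit that releases glucose, gave 12.61, 12.81, 13.64 and 12.68 in voglibose mice and 12.48, 13.44, 13.27 and 13.56 in water mice. Water mice 2, 3 and 4 and voglibose mouse 3 were high and the other 4 mice low, so the groups overlapped. The difference was -0.25 ± 0.28 (SE; 95% interval -0.86 to 0.36; limma adjusted p = 0.868, exact permutation p = 0.486). Leaving out water mouse 1 gave -0.49 and leaving out water mouse 4 gave -0.13. Of 10 hepatocyte markers, 1 to 2 lay above the array median, and their mean was 4.62 to 5.03 in voglibose mice and 4.58 to 5.06 in water mice. Serpina1a, at 6.89 to 10.13, was the brightest and gave 9.84 in voglibose mouse 3, the mouse with the highest G6pc. It was highest in water mouse 1, at 10.13, the mouse with the lowest G6pc, at 12.48. Alb was 3.78 to 4.48 in all 8 mice. The part of hepatocyte transcripts in the G6pc signal was not tested. Fbp1 and G6pc, which act at separate steps on the way to glucose, thus had differences of opposite sign, and that contrast was not tested.

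Pck1, the cytosolic enzyme that makes phosphoenolpyruvate, spread most between mice. It gave 12.09, 10.09, 9.74 and 9.41 in voglibose mice and 8.20, 10.82, 10.40 and 9.85 in water mice. Voglibose mouse 1 was far above and water mouse 1 far below the rest, and the other 6 mice lay between 9.41 and 10.82. The difference was 0.52 ± 0.62 (SE; 95% interval -0.86 to 1.89; limma adjusted p = 0.885, exact permutation p = 0.571). It was -0.071 without voglibose mouse 1 and -0.024 without water mouse 1, so its sign rests on these mice. Adipocytes also express Pck1 strongly. Their markers averaged 6.25 in voglibose mouse 1 and 6.23 in water mouse 1, and 4 of the 9 measured lay above the array median in every mouse. Fabp4 was 11.57 to 12.69 and Adipoq 3.77 to 5.40 over the 8 mice, and the part of adipocytes in the Pck1 signal was not tested.

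The Pck1 promoter is shown because its cyclic AMP response is well studied. It is chr2:173152823-173153122 on the plus strand of GRCm38.p6, from RefSeq. Capitals mark an HNF1 motif, which begins at position -192 from the start, and a cyclic AMP response motif (TGACGT), which begins at -91, both read on the opposite strand.
Pck1: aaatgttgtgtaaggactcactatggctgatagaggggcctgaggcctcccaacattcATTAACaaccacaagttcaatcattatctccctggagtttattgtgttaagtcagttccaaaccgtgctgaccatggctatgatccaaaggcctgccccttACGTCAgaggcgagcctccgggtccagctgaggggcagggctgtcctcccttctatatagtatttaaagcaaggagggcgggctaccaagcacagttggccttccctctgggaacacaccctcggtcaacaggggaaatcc

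Pck2, the mitochondrial form, was dim. It gave 4.99, 5.15, 5.08 and 5.13 in voglibose mice and 5.06, 5.45, 5.32 and 4.73 in water mice. The voglibose mice lay inside the wider water range. The difference was -0.05 ± 0.17 (SE; 95% interval -0.43 to 0.32; limma adjusted p = 0.966).

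Over the 8 promoters, the E-box was found in 2, the HNF1 motif in 4, the cyclic AMP motif in 1 and the TATA box (TATAAA) in 1. The HNF4 core (CAAAGTCCA) was in 0. Both strands were searched, and no motif overlapped another in these promoters. Of all 32544 promoters of the same length, 7.17% held the E-box, 7.13% the HNF1 motif, 7.55% the cyclic AMP motif, 13.6% the TATA box and 0.479% the HNF4 core. The HNF1 motifs were in Khk, Glyctk, G6pc and Pck1, and the E-boxes in Khk and Fbp2. A match describes the letters of the window and not binding.

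**Figure D2:**
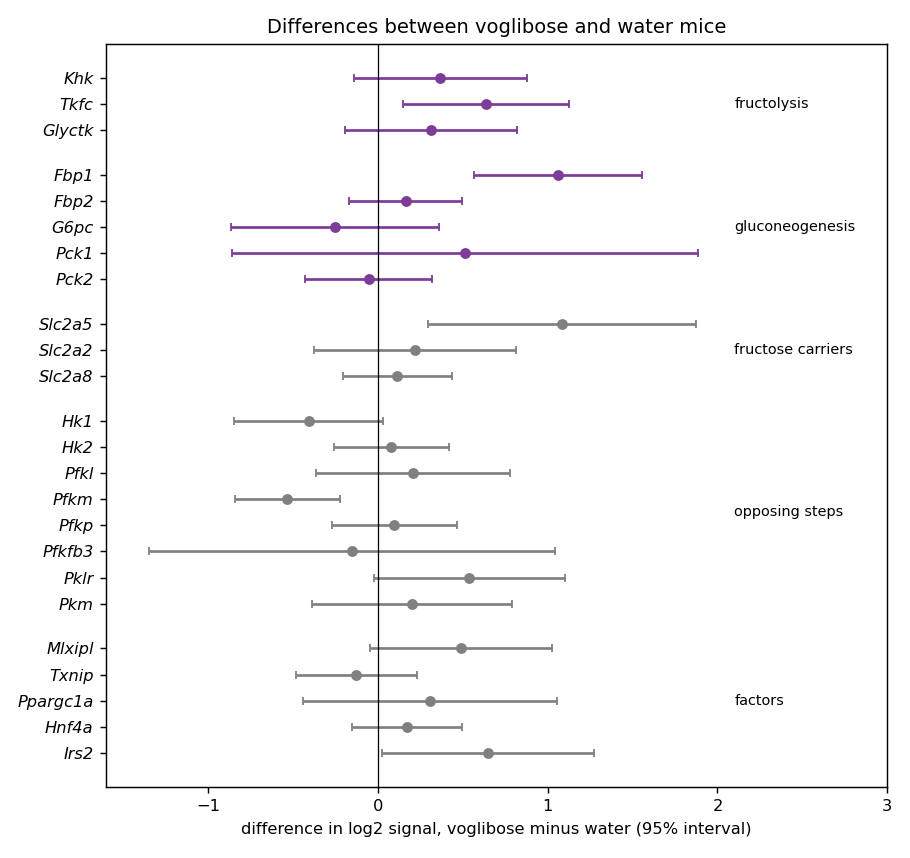
Difference in log2 signal, voglibose minus water, with 95% intervals from limma, for the 8 enzymes (purple) and for fructose carriers, opposing glycolytic genes and factors (grey). The intervals of Fbp1, 0.57 to 1.55, and Tkfc, 0.15 to 1.12, lie above 0, and those of the other 6 enzymes span it.

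The distal ileum markers, such as the bile acid binding protein Fabp6, gave means of 11.89, 10.78, 12.85 and 12.87 in voglibose mice and 12.28, 14.87, 13.39 and 10.94 in water mice. The groups overlapped, and the labels do not say where along the ileum each piece was taken. Fabp6 ran from 3.54 in voglibose mouse 2 to 17.50 in water mouse 2, and was 4.01 in water mouse 4. Slc10a2 ran from 5.69 in water mouse 4 to 13.52 in water mouse 2. Slc51a, Slc51b, Fgf15, Ces1g, Guca2a and Bcl2l15 were also highest in water mouse 2. Clca4b was nearly flat, at 17.65 to 17.99, and Cubn was 16.13 in water mouse 2 and highest in voglibose mouse 4, at 16.48. The marker mean thus leans on the markers that vary most, such as Fabp6. With the group in the same limma fit, Khk had a slope of -0.19 ± 0.08 per log2 unit of the marker mean (SE; limma adjusted p = 0.331). Of the 8 enzymes, 0 had a slope with adjusted p under 0.05, against 1.77% of all probe sets, and Khk alone had an unadjusted p under 0.05, against 13.1%. The Khk slope was -0.08 without water mouse 2. Fbp1 had a slope of -0.04 ± 0.09 (SE; limma adjusted p = 0.918), and its group difference with the marker mean in the fit was 1.03.

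**Figure D3:**
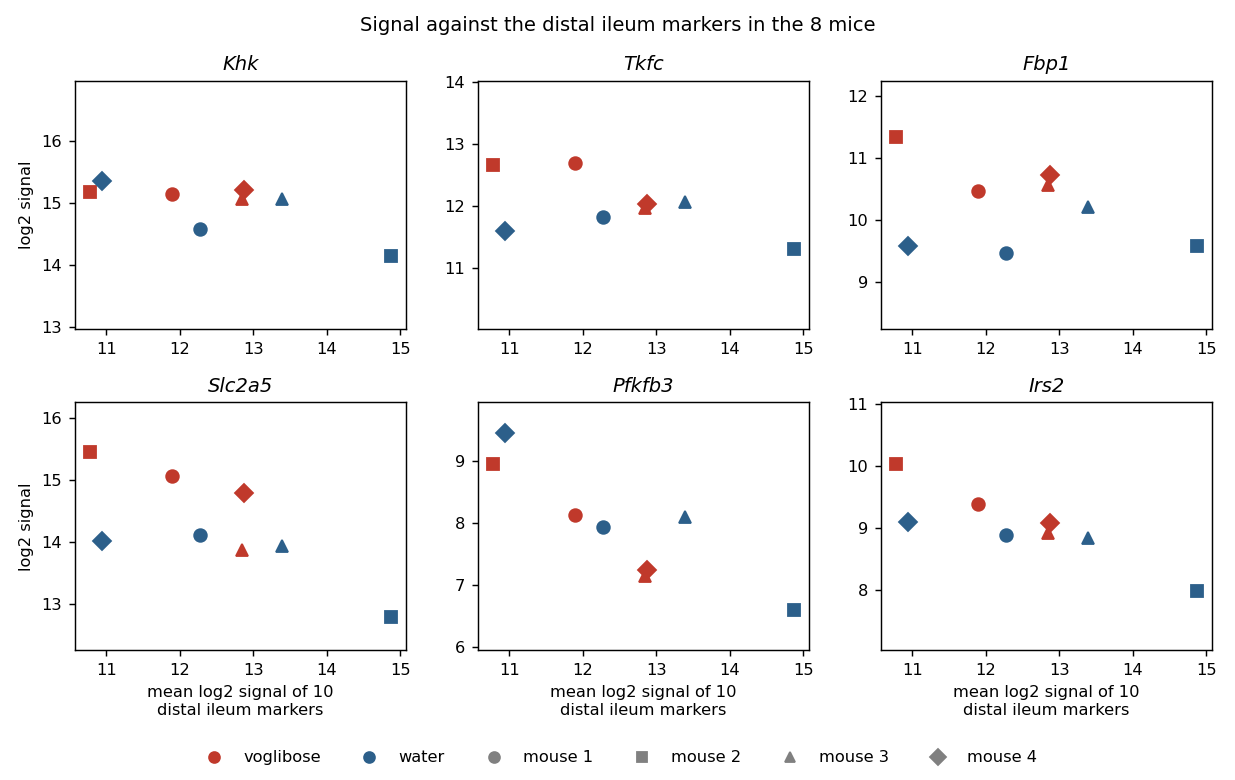
Log2 signal of Khk, Tkfc, Fbp1, Slc2a5, Pfkfb3 and Irs2 against the mean log2 signal of 10 distal ileum markers, 1 point per mouse, with colour for the group (voglibose red, water blue) and shape for the mouse number. The marker mean runs from 10.78 to 14.87, every voglibose point of Fbp1 lies above every water point, and Khk is lowest in the water mouse with the highest markers.

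The neighbouring steps were described with 7 lists of genes. Of their 83 measured genes, 6 had an unadjusted p under 0.05, 2 higher and 4 lower in voglibose mice. The groups did not overlap for 2 of the 83. Among all probe sets, 3.08% were higher and 4.44% lower at that p, and the groups of 4.35% did not overlap. Around fructose entry, 8 of 9 genes were measured, 6 higher and 2 lower, with a median of 0.08 and 1 at an unadjusted p under 0.05, the carrier Slc2a5. Slc2a2, the basolateral hexose carrier, differed by 0.22 ± 0.27, and Aldoc, an aldolase, by 0.24 ± 0.29 (SE). Without voglibose mouse 2 and water mouse 2 these were -0.15 and 0.10. In the list for the polyol route that makes sorbitol, 3 of 5 genes were measured and all 3 were lower, with a median of -0.45. Akr1b3, the aldose reductase itself, and Akr1b7 are not analysed here. Akr1a1 differed by -0.09 ± 0.13 (SE). Akr1b10, an aldose reductase relative, differed by -0.45 ± 0.22 (SE; limma adjusted p = 0.668), and Akr1b8 by -0.49 ± 0.32 (SE). With 1 mouse left out, Akr1b10 ran from -0.62 to -0.24, the latter without water mouse 4, and Akr1b8 from -0.795 to -0.30. Leaving out voglibose mouse 2 and water mouse 2 gave -0.56 for Akr1b10 and -0.19 for Akr1b8. Sis, the sucrase that voglibose inhibits, differed by 0.08 ± 0.14 (SE). Gk, glycerol kinase, is not analysed here. None of the genes in these lists had an adjusted p under 0.05.

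In the rest of gluconeogenesis, 22 of 25 genes were measured, 11 higher and 11 lower, with a median of 0, and 2 lower ones at an unadjusted p under 0.05. They were Pgm2, a phosphoglucomutase family member, at -0.50 ± 0.19 (SE; limma adjusted p = 0.658), and Mpc1, a subunit of the mitochondrial pyruvate carrier, at -0.41 ± 0.18 (SE; limma adjusted p = 0.659). Pcx, pyruvate carboxylase, the entry step from pyruvate, differed by -0.04 ± 0.21. Slc37a4, the carrier that brings glucose 6-phosphate to G6pc, differed by 0.35 ± 0.29, and G6pc3 by 0.18 ± 0.16 (SE). Without voglibose mouse 2 and water mouse 2, Pgm2 differed by -0.27, Pcx by -0.24 and Slc37a4 by 0.0033. For the entry of glutamine and glycerol, 7 of 11 genes were measured, 3 higher and 4 lower, with a median of -0.19, and Gpt2, alanine transaminase, was lower at an unadjusted p under 0.05, with a difference of -0.43 ± 0.19 (SE; limma adjusted p = 0.659), and of -0.26 without the same mice. Oat, which links glutamate to ornithine, differed by -0.19 ± 0.13 (SE).

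Among glycolytic steps that oppose these enzymes, 12 of 15 genes were measured, 7 higher and 5 lower, with a median of 0.05. Pfkm, the muscle phosphofructokinase that opposes the bisphosphatases, gave 4.69, 4.95, 4.66 and 4.62 in voglibose mice and 5.25, 5.42, 5.29 and 5.09 in water mice. All 4 voglibose mice lay below all 4 water mice, in a dim probe set. The difference was -0.53 ± 0.14 (SE; limma adjusted p = 0.652). Pfkl and Pfkp, the other phosphofructokinases, differed by 0.21 ± 0.26 and 0.10 ± 0.17 (0.067 and -0.07 without voglibose mouse 2 and water mouse 2), Hk1 by -0.41 ± 0.20 and Hk2 by 0.08 ± 0.15 (SE). Pfkfb3, which makes the activator of phosphofructokinase, differed by -0.16 ± 0.54 (SE), and by -0.99 without the same mice. Pklr, the pyruvate kinase of liver and gut, differed by 0.54 ± 0.26 (SE; limma adjusted p = 0.664), and by 0.12 without the same mice. Hk3, the other gene of this list whose groups did not overlap, was named after its values were seen and differed by 0.25 ± 0.13 (SE).

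In the glyoxylate and serine branch beside Glyctk, 10 of 10 genes were measured, 4 higher and 6 lower, with a median of -0.07 and 0 at an unadjusted p under 0.05. The smallest p-values were those of Shmt2, a mitochondrial serine enzyme, at -0.28 ± 0.16 (SE), and Phgdh, the first enzyme of serine synthesis, at -0.44 ± 0.29 (SE), which was -0.80 without voglibose mouse 2 and water mouse 2. Among regulators of these enzymes, 21 of 23 genes were measured, 11 higher and 10 lower, with a median of 0.00. Mlxipl, the carbohydrate response factor ChREBP, gave 11.47, 11.71, 11.16 and 10.85 in voglibose mice and 10.64, 10.26, 11.19 and 11.14 in water mice. Voglibose mice 1 and 2 lay above every water mouse and the groups overlapped. Its difference was 0.49 ± 0.24 (SE; limma adjusted p = 0.679). Irs2, the insulin receptor adaptor, differed by 0.65 ± 0.28 (SE; limma adjusted p = 0.659). Both were highest in voglibose mouse 2 and lowest in water mouse 2, and without these mice Mlxipl differed by 0.17 and Irs2 by 0.18. Hnf4a, an enterocyte and liver nuclear receptor, differed by 0.17 ± 0.15, Txnip, a ChREBP target, by -0.13 ± 0.16 and Ppargc1a by 0.31 ± 0.34 (SE), which was -0.17 without the same mice.

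**Figure D4:**
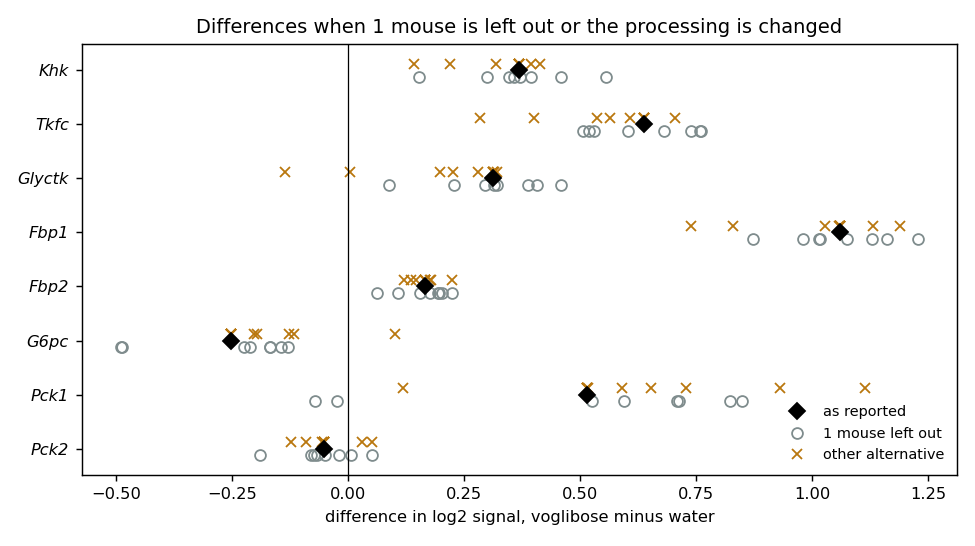
Differences in log2 signal, voglibose minus water, of the 8 enzymes, with a diamond for the value reported, circles for fits with 1 mouse left out and crosses for the other alternatives. Fbp1 stays between 0.74 and 1.23 and Tkfc between 0.29 and 0.76, while Pck1 spans -0.071 to 1.11.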

How the data were processed

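Expression was measured in the ileum of 8 KKAy mice, 4 given voglibose and 4 given water, on 1 array per mouse. The authors deposited 1 log2 signal for each probe set and array. Per the submitters' processing notes, these were processed with RMA and the Transcriptome Analysis Console, with no versions named. The log2 scale was read from the values, which ran from 2.09 to 19.55, and the genome build of the array annotation is not given in the sources used here. RMA brings arrays to a like distribution, so a change in total RNA would not be seen, and dim or very bright probe sets understate differences.

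All 22206 probe sets entered 1 limma fit (version 3.58.1, R 4.3.3, moderated and 2-sided), with Benjamini-Hochberg adjustment over all of them and a threshold of 0.05. Symbols came from the platform annotation for 19572 probe sets and were updated through gene identifiers. Promoters, from 250 bases before to 50 after the start, came from RefSeq (GRCm38.p6), and 8 of 8 measured enzymes matched. Figures used matplotlib 3.10.9 in Python 3.11.15. The fit was tested on simulated data.

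The enzymes and gene lists were chosen with earlier results of these data known. Genes named were the enzymes, a panel of related genes whatever their values, the 2 genes with the smallest p in each list, and the 5 genes most alike Fbp1, Tkfc and Khk. The labels state no pairing of the mice, so none was used in the main fit. Deviations of same-numbered mice correlated at 0.02, -0.32, 0.01 and -0.18, which cannot show whether mice were paired. Alternatives were another normalization, other variance models, array weights, a filter on dim probe sets, the replicate block, marker covariates, each mouse left out and an exact permutation test.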

Additional observations from a re-analysis of the deposited data

Results flagged for a closer look

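Of 98 groups of 4 mice tested for a value far from the other 3, 4 held one, and chance marks about 1 in 20. Fbp1 in water mouse 3, at 10.22, lay far above the other water mice, at 9.48 to 9.59. Slc2a5 in water mouse 2, at 12.78, lay far below the other water mice, at 13.93 to 14.11. The mean of the pancreatic acinar markers in voglibose mouse 2, at 9.96, lay far above the other voglibose mice, at 4.80 to 4.95. The mean of the hepatocyte markers in voglibose mouse 3, at 5.03, lay above the other voglibose mice, at 4.62 each. In that mouse Serpina1a was 9.84 and Serpina1b 7.79, against 6.89 to 10.13 and 5.13 to 7.66 in the other 7 mice, and Alb was 4.07. Water mouse 1 had a hepatocyte marker mean of 5.06.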

How the results depend on the processing

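In every setting 0 of the 8 enzymes had an adjusted p under 0.05. Fbp1, Tkfc, Khk and Fbp2 kept their sign in all 19 refits. Leaving out 1 mouse at a time gave -0.071 to 0.85 for Pck1 and -0.19 to 0.051 for Pck2. Pck2 was also 0.051 with the distal ileum markers as covariate. The other limits come from alternatives chosen after seeing the data, which left out mice that stand apart, as did the values given without them for other genes. Without water mouse 2 and voglibose mouse 2, Pck2 was 0.03, 1 enzyme had an unadjusted p under 0.05 (1 with the fold as well), and 0 had an exact p under 0.05, which 3 against 3 mice cannot reach. Without water mouse 4 as well, Glyctk was -0.14 and G6pc 0.10, and 1 enzyme had an unadjusted p under 0.05 (1 with the fold). There, 2 had groups that did not overlap and 0 had an exact p under 0.05, which 3 against 2 mice cannot reach either. With 1 mouse left out, 2 to 3 enzymes had an unadjusted p under 0.05 (2 to 3 with the fold), 0 to 2 an exact p under 0.05 and 1 to 2 groups that did not overlap. By limma, 1749 of 22206 probe sets had an unadjusted p under 0.05 in the 6 mice and 1238 in the 5. With 1 mouse left out, 969 to 1906 did. Groups separate more readily by chance with fewer mice, and the share of all probe sets that did so was counted only with all 8. The cause of the shifts between settings was not tested, beyond the smaller number of mice.

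The median of the polyol list was -0.25 with the distal covariate, -0.19 in the 6 mice, -0.28 in the 5 mice and -0.45 to -0.24 with 1 mouse left out. That of the glutamine and glycerol list was -0.035 with the distal covariate, -0.075 in the 5 mice and -0.23 to -0.0225 with 1 left out. The rest of gluconeogenesis was -0.24 in the 6 mice and -0.14 to 0.085 with 1 left out, and the glyoxylate list -0.21 in both the 6 and the 5 mice and -0.16 to -0.025 with 1 left out. With the replicate block, the differences were as before, Fbp1 at 1.06 and Tkfc at 0.64, 2 enzymes had an unadjusted p under 0.05, and no call changed. Over all probe sets, 1671 had an unadjusted p under 0.05, 988 of 11101 with the filter on dim probe sets, and 969 without voglibose mouse 1. Averaging probe sets of a gene could not be tried, since each enzyme had 1.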

Other observations

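Some genes beside these enzymes followed the distal ileum markers more closely than the enzymes did. Pfkfb3, which makes the fructose bisphosphate that restrains the bisphosphatases, had a slope of -0.71 ± 0.08 per log2 unit of the marker mean (SE; limma adjusted p = 0.00266), and -0.71 without water mouse 2 (limma adjusted p = 0.0445). Irs2, at -0.33, and Ppargc1a, a coactivator of gluconeogenic genes, at -0.39, had adjusted p of 0.0433 and 0.0410 by limma with all 8 mice, and 0.355 and 0.452 without water mouse 2. The proximal factor Gata4 had -0.68 and Fabp1 -0.91 (limma adjusted p = 0.00746 and 0.000848), both proximal markers by choice.

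The genes most alike Fbp1 across the 8 mice, by Pearson's r of deviations from the group means over 9764 probe sets, were Tnpo2 (0.957), Tiparp (0.948), Junb (0.947), Sertad1 (0.941) and Camk2n1 (0.933). Those most alike Tkfc were Itga3 (0.987), Tmem98 (0.984), Ago2 (0.983), Pcbp2 (0.978) and Pcsk5 (0.977). Those most alike Khk were Atpaf1 (0.989), Cnot7 (0.980), Nprl2 (0.978), Fahd1 (0.976) and Arhgap19 (0.973). With 8 mice, values this high are found by searching many probe sets, and they are given as a description. The other 7 enzymes correlated with Fbp1 at 0.01 to 0.54.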
